A study of Mus musculus with 12 samples.

Results

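The 9 genes described here were grouped under negative feedback on Toll-like receptor (TLR) signalling: Tnfaip3, Tnip1, Socs3, Irak3, Peli1, Tollip, Sigirr, Rab7b and Cyld. They were chosen by name, and each was found as 1 row among the 38215 genes of the count table. Their exons were counted in 161 of the 354841 exon bins, the stretches between annotated exon boundaries. All 9 passed the filter on low counts and were among the 14983 genes tested. In mm10 the ubiquitin regulators are Tnfaip3 (ENSMUSG00000019850) at chr10:19000910-19015657, minus strand, Tnip1 (ENSMUSG00000020400) at chr11:54910785-54962917, minus strand, and Cyld (ENSMUSG00000036712) at chr8:88697028-88751945, plus strand. The genes that act at the receptor and the IRAK kinases are Irak3 (ENSMUSG00000020227) at chr10:120141648-120202130, minus strand, Peli1 (ENSMUSG00000020134) at chr11:21091291-21150323, plus strand, Tollip (ENSMUSG00000025139) at chr7:141874813-141918507, minus strand, and Sigirr (ENSMUSG00000025494) at chr7:141091175-141100572, minus strand. Rab7b (ENSMUSG00000052688) lies at chr1:131688695-131715439, plus strand, and Socs3 (ENSMUSG00000053113) lies at chr11:117966079-117970047, minus strand.

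RAW264.7 is an established macrophage line from a BALB/c mouse. In all 12 libraries the cells had been nucleofected with an siRNA for 24 hours, either a nontargeting control or one against Sf3a1, which encodes a subunit of the SF3a splicing complex of the U2 snRNP. Each siRNA had 3 cultures that then received 20 ng/ml LPS, the bacterial ligand of TLR4, for 4 hours, and 3 that did not, so that there were 4 groups of 3. The labels do not say whether replicates were independent experiments, and p values measure the spread between these samples, which may be technical. Polyadenylated RNA was sequenced on the Ion Proton, and between 12.7 M and 41.1 M reads per library were assigned to genes. Replicate 1 of each group was the deepest and had 2 sequencing runs, the others 1. The groups limit what the values can say: 1 cell line, 1 time point, a knockdown that left some Sf3a1 mRNA, and no group without nucleofection.

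When LPS binds TLR4, the adaptor MyD88 recruits IRAK kinases, which activate the ubiquitin ligase TRAF6 and, through TAK1 and the IKK complex, NF-κB. Macrophages limit this chain at several steps. A20, the product of Tnfaip3, edits ubiquitin chains together with its binding partner ABIN-1 (Tnip1), and the deubiquitinase CYLD (Cyld) removes such chains. IRAK-M (Irak3), TOLLIP (Tollip) and SIGIRR (Sigirr) act near the receptor and the IRAK kinases, RAB7B (Rab7b) directs TLR4 to lysosomes, and SOCS3 (Socs3) blocks cytokine receptor signalling. Pellino-1 (Peli1) is a ubiquitin ligase of the IRAK complex, and whether it limits the chain in these cells was not tested. Several of these genes are themselves NF-κB or STAT targets, which is what makes the loop a feedback.

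Sf3a1, the target of the siRNA, stood at 173, 216 and 185 CPM (counts scaled to the size of the library, with TMM factors) in replicates 1 to 3 with control siRNA and no LPS, and at 27.1, 27.5 and 32.1 CPM with SF3a1 siRNA. With LPS the values were 150, 194 and 157 CPM with control siRNA and 30.3, 26.7 and 45.1 CPM with SF3a1 siRNA. The groups did not overlap, and the mean was 15.1% of control without LPS and 20.4% with LPS. All 8 macrophage markers examined were detected, with a summed level of 9483 to 14500 CPM per library led by Lyz2, while 3 B cell, 3 T cell, 3 epithelial and 4 fibroblast markers together reached at most 0.363, 0.112, 0.184 and 0.316 CPM. The 3 neutrophil markers reached at most 1.39 CPM, nearly all of it S100a8. In RNA from whole cultures, fewer cells expressing a gene and less RNA per cell cannot be told apart.

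Divided by exon length, the 9 regulators spanned a wide range in unstimulated cells with control siRNA. Tnip1 was highest at 33.8 ± 5.58 CPM per kb (SD, n = 3), followed by Rab7b at 21.2 ± 1.13 and Tollip at 14.3 ± 1.45. Socs3 stood at 6.33 ± 1.48 CPM per kb, Peli1 at 3.15 ± 0.0376, Cyld at 3.08 ± 0.195, Irak3 at 2.37 ± 0.944 and Tnfaip3 at 1.23 ± 0.253. Sigirr was barely expressed, at 0.149 ± 0.122 CPM per kb. After LPS with control siRNA, Socs3 led at 318 ± 102 CPM per kb, ahead of Tnip1 at 173 ± 24.9. Peli1 reached 32.4 ± 13.4 CPM per kb and Tnfaip3 19.7 ± 4.90, beside Rab7b at 22.47 ± 9.502 and Tollip at 18.7 ± 3.10. Levels between genes are not tested. Exon lengths are from GENCODE vM21, whose bins differ in number from the counted ones for Tollip, Sigirr and Cyld, so their values per kb are less certain.

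**Figure D1:**
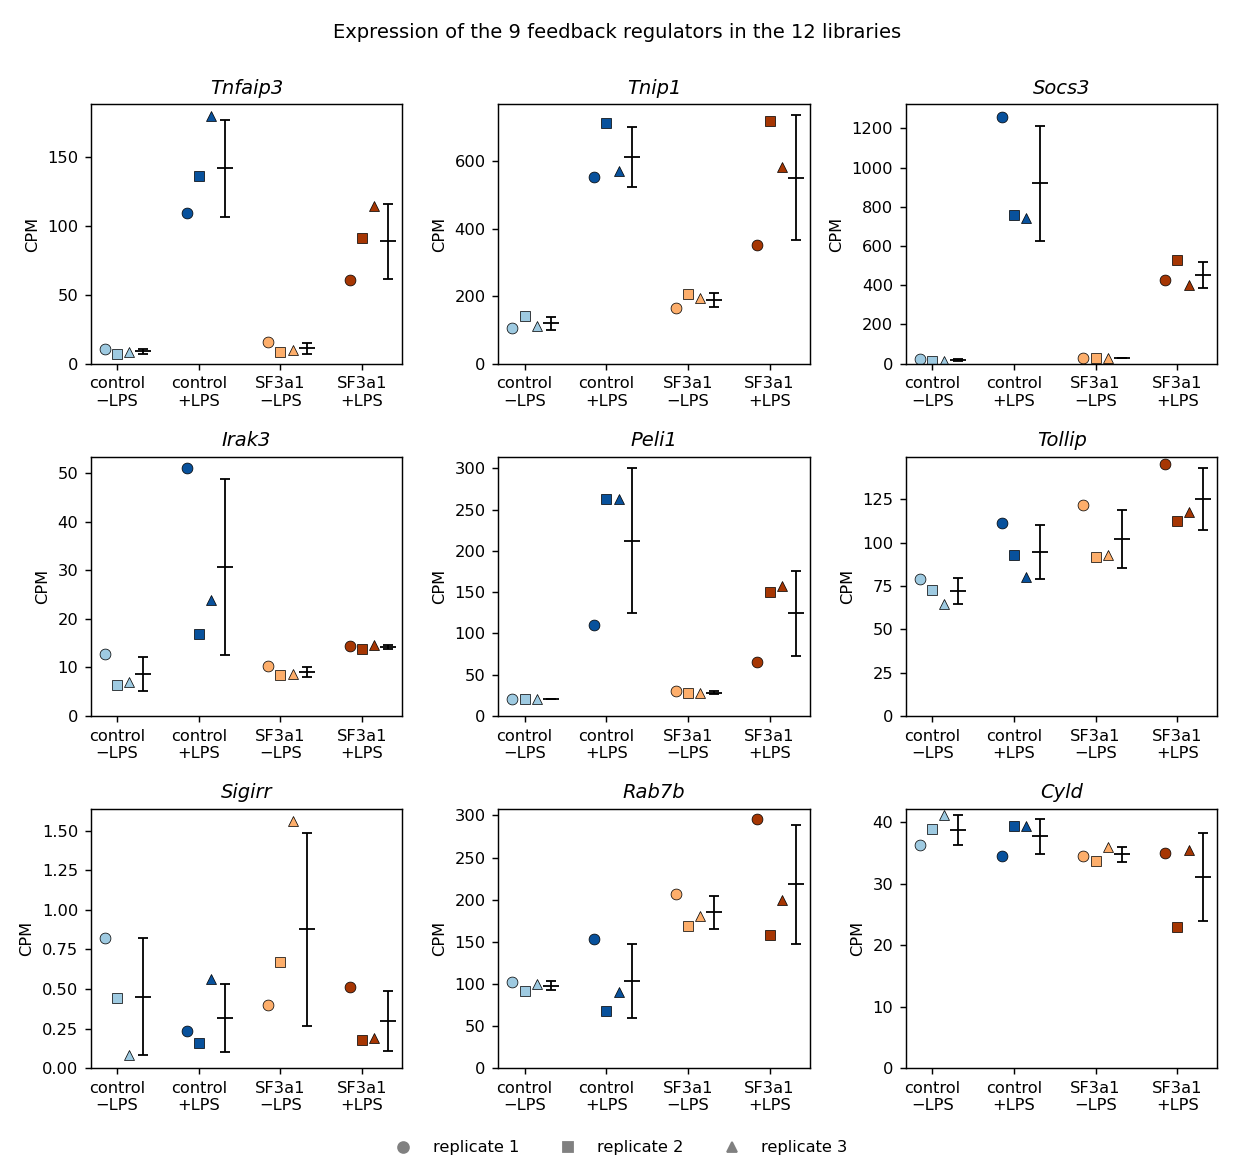
Expression of each regulator in the 12 libraries, as CPM on a linear axis from 0 (each panel has its own scale); symbols mark the replicate number and the black bar the mean ± SD (n = 3). Tnfaip3, Tnip1, Socs3, Irak3 and Peli1 were higher with LPS under control siRNA, Rab7b was higher with SF3a1 siRNA with and without LPS, and Cyld varied little.

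LPS with control siRNA raised 5 of the 9 genes and lowered 0, as called by edgeR at an adjusted p of 0.1 (Benjamini-Hochberg, quasi-likelihood F-test). Among all tested genes 32.1% were called in this comparison, 13.8% higher and 18.3% lower. The 5 were the ubiquitin editors Tnfaip3 and Tnip1, the cytokine signalling inhibitor Socs3, the kinase-dead IRAK Irak3 and the ligase Peli1. The median log2 fold change over the 9 was 1.81, against -0.0166 over all tested genes.

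Socs3 was at 23.2, 15.8 and 15.9 CPM in replicates 1 to 3 without LPS and at 1260, 759 and 741 CPM with LPS. Every stimulated library was far above every unstimulated one, a 50.2-fold difference (log2 fold change 5.65, standard error 0.267, adjusted p = 2.41e-08). Tnfaip3 was at 10.8, 7.10 and 8.86 CPM without LPS and at 109.5, 136.7 and 179.7 CPM with LPS. The difference was 15.9-fold (log2 3.99, standard error 0.32, adjusted p = 1.54e-06), with no overlap. Peli1 was held within 20.4 to 20.8 CPM without LPS and reached 111, 263 and 263 CPM with LPS. Replicate 1 was the low one after LPS, yet the groups stayed apart, with a 10.3-fold difference (log2 3.36, standard error 0.363, adjusted p = 2.04e-05).

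Tnip1, the most abundant of the 5 at rest, was at 106, 142 and 111 CPM without LPS and at 553, 714 and 572 CPM with LPS, a 5.12-fold difference (log2 2.36, standard error 0.239, adjusted p = 1.17e-05). Irak3 was at 12.7, 6.43 and 6.98 CPM without LPS and at 51.1, 16.8 and 24.0 CPM with LPS. Its 3.51-fold difference (log2 1.81, standard error 0.365, adjusted p = 0.00247) had replicate 1 as the highest library in both groups, and the groups did not overlap. Without control siRNA with LPS replicate 1 the log2 fold change was 1.22 and was still called. Irak3 shares exonic bases on the other strand with Tmbim4 and Gm47009, and since the strand setting of the counting is not given in the sources used here, reads of these genes cannot be told apart there.

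The other 4 genes were not called. Tollip, at 79.2, 72.6 and 64.6 CPM without LPS and 111, 93.2 and 80.0 CPM with LPS, differed by log2 0.39 (standard error 0.171, adjusted p = 0.116) without overlap. With the replicate number as a block, 6571 genes were called in place of 4809, and Tollip was among them (log2 0.39, adjusted p = 0.0113). Tollip was higher with LPS in 3 of 3 pairs. Rab7b (log2 0.08, standard error 0.272, adjusted p = 0.867), Cyld (log2 -0.04, standard error 0.166, adjusted p = 0.898) and Sigirr (log2 -0.57, standard error 0.777, adjusted p = 0.668) gave no call either way. For comparison, Tnf and Il1b, the genes of the cytokines TNFα and IL-1β, were higher with LPS by log2 5.35 (standard error 0.491) and 14.12 (standard error 0.588), the latter a fitted value over 15 counts in the 3 libraries without LPS. Of the 8 macrophage markers 5 were higher and 1 lower with LPS, among them Fcgr1 (log2 2.83, standard error 0.227), Itgam (1.61, standard error 0.412, or 0.77 without control siRNA with LPS replicate 1) and Csf1r (-1.04, standard error 0.138), and their part in the members' values was not tested. Tnf was at 671, 1873 and 1804 CPM in replicates 1 to 3 with control siRNA and LPS, so that replicate 1, the deepest library, was low for Tnf as for Peli1, and the part of depth or of its 2 runs in this was not tested.

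The promoters of Socs3, Tnfaip3, Peli1 and Tnip1 are shown, since LPS raised these 4 members most under control siRNA. RefSeq promoter windows (GRCm38.p6) were found for 7 of the 9 genes, 9 windows in all, and were read from 250 bases before the start to the start. They were searched on both strands for the 10-base κB consensus and for the STAT-type motif TTCNNNGAA, and these 2 motifs overlapped in none of the windows printed. Of all 32851 promoter windows of the same length, 7.25% held a κB match and 7.02% a STAT-type match. Capitals mark the matches.
Tnfaip3, chr10:19015411-19015660, minus strand: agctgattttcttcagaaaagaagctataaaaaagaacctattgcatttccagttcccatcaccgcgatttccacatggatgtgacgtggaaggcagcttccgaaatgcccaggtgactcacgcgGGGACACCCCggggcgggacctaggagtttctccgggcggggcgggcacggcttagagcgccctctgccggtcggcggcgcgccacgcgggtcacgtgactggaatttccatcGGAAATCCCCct
Tnip1, chr11:54962941-54963190, minus strand: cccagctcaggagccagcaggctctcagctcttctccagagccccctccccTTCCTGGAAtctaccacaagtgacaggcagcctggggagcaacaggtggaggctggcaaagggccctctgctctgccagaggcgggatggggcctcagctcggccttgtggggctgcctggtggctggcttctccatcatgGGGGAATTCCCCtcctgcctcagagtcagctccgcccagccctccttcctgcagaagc
Peli1, chr11:21091074-21091323, plus strand: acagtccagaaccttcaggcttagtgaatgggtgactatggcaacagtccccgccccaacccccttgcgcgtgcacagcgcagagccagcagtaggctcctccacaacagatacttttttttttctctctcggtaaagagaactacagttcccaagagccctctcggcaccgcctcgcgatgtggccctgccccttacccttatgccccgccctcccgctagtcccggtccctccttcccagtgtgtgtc
Socs3, chr11:117969367-117969616, minus strand: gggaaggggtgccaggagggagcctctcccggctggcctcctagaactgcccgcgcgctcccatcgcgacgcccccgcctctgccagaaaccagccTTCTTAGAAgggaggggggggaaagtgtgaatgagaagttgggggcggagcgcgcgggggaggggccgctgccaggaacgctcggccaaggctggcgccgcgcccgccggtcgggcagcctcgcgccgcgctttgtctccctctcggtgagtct

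The Tnfaip3 window printed held 2 κB matches, which ended 115 and 2 bases before the start, and a second window of the gene (chr10:19011964-19012213, not printed) held neither motif. That of Tnip1 held 3 overlapping κB matches in 1 run ending 46 bases before the start, and a STAT-type match 190 bases before it. That of Socs3 held a STAT-type match that ended 145 bases before the start and no κB match. A κB match was also present for Cyld, which LPS did not change detectably, and neither motif was found in these windows for Peli1, Irak3 or Tollip. A match is a run of letters, and binding was not measured.

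Under SF3a1 siRNA, LPS raised 4 of the 9 genes, Tnfaip3, Tnip1, Socs3 and Peli1, and lowered 0. In this comparison 10.7% of all tested genes were called, 6.6% higher and 4.06% lower. The fold changes were smaller than with control siRNA for each of the 4. Socs3 was at 31.6, 29.1 and 29.5 CPM without LPS and 429, 528 and 401 CPM with LPS, a 15.03-fold difference (log2 3.91, standard error 0.246, adjusted p = 9.25e-07). Tnfaip3 was at 15.9, 8.42 and 9.60 CPM without and 60.6, 91.3 and 115 CPM with LPS, a 7.81-fold difference (log2 2.97, standard error 0.308, adjusted p = 4.66e-05).

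Peli1 was at 29.97, 27.8 and 27.5 CPM without and 65.2, 150 and 158 CPM with LPS under SF3a1 siRNA (4.37-fold, log2 2.13, standard error 0.347, adjusted p = 0.00178). Tnip1 was at 166, 206 and 195 CPM without and 352, 719 and 582 CPM with LPS (2.92-fold, log2 1.54, standard error 0.232, adjusted p = 0.000991). The groups of all 4 genes stayed apart, and replicate 1 was the lowest stimulated library for Tnfaip3, Peli1 and Tnip1. Irak3 was at 10.3, 8.36 and 8.63 CPM without and 14.3, 13.8 and 14.5 CPM with LPS, apart but close, and was not called (log2 0.64, standard error 0.362, adjusted p = 0.388). With the replicate block, 3115 genes were called in place of 1598, and Irak3 (log2 0.67, adjusted p = 0.0927) and Tollip (log2 0.30, adjusted p = 0.0799) were among them.

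The difference between the 2 LPS effects was tested as the interaction of siRNA and LPS. Of the 9 genes 1 was called lower and 0 higher, against a background of 3.47% called in all, 1.94% lower and 1.54% higher. Socs3 was induced less under SF3a1 siRNA, with a log2 difference of -1.74 (standard error 0.314, adjusted p = 0.0163), or 3.34-fold less, in 3 of 3 replicate pairs. Estimates for the other 4 LPS-induced genes were also negative without being called: -1.23 for Peli1 (standard error 0.473, adjusted p = 0.257), -1.17 for Irak3 (standard error 0.507, adjusted p = 0.335), -1.02 for Tnfaip3 (standard error 0.408, adjusted p = 0.28) and -0.81 for Tnip1 (standard error 0.322, adjusted p = 0.277). With the replicate block, 1756 genes were called in place of 520, and Tnip1 (log2 difference -0.86, adjusted p = 0.0216), Peli1 (-1.24, adjusted p = 0.0631) and Irak3 (-1.10, adjusted p = 0.0778) were called beside Socs3 (-1.72, adjusted p = 0.0013), while Tnfaip3 was not (-1.03, adjusted p = 0.125). Without the block, the Irak3 estimate was -0.58 (adjusted p = 0.587) when control siRNA with LPS replicate 1 was left out, and ran from -1.62 to -0.58 over the 12 fits without 1 library. Il1b showed a log2 difference of -3.31 (standard error 0.747, adjusted p = 0.0413) and Tnf of -1.85 (standard error 0.584, adjusted p = 0.146, or 0.0475 with the block). The Il1b call was lost by limma-voom (adjusted p = 0.226) and without any of 3 single libraries, where its value ran from -3.70 to -2.26 over the 12 fits without 1 library.

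**Figure D2:**
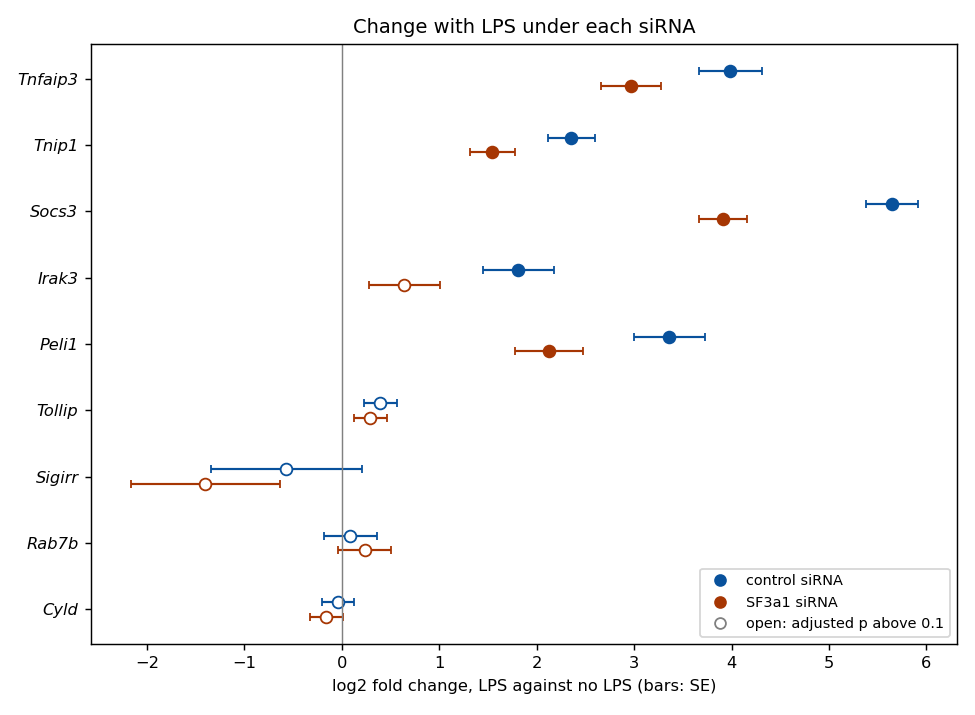
Log2 fold change with LPS (x axis) of each regulator under control siRNA and SF3a1 siRNA, with bars of 1 standard error; filled points passed an adjusted p of 0.1. For Socs3, Tnfaip3, Peli1, Tnip1 and Irak3 the value under SF3a1 siRNA lies below that under control siRNA, and the difference was called for Socs3 alone in the model with 4 group means, TMM and the filter on low counts.

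SF3a1 siRNA without LPS raised 4 of the 9 genes, Rab7b, Socs3, Tollip and Tnip1, and lowered 0. Of all tested genes 33.8% were called, 13.7% higher and 20.1% lower. Rab7b, the small GTPase of the late endosome, was at 102, 92.2 and 101 CPM with control siRNA and at 207, 169 and 180 CPM with SF3a1 siRNA. All 3 knockdown libraries were above all 3 controls, a 1.89-fold difference (log2 0.92, standard error 0.274, adjusted p = 0.026). Tollip was at 122, 92.0 and 92.8 CPM with SF3a1 siRNA, above each control library given earlier (log2 0.50, standard error 0.171, adjusted p = 0.0464). That call was lost without replicate 1 of SF3a1 siRNA without LPS (adjusted p = 0.185).

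Socs3 and Tnip1, both LPS-induced, were already higher after SF3a1 siRNA in unstimulated cells, by 1.64-fold (log2 0.71, standard error 0.224, adjusted p = 0.0323) and 1.58-fold (log2 0.66, standard error 0.229, adjusted p = 0.0505). The libraries of both genes given above did not overlap between the siRNAs. The Tnip1 call was lost without replicate 2 (adjusted p = 0.131) or replicate 3 (adjusted p = 0.122) of SF3a1 siRNA without LPS. Over the 12 fits that left out 1 library each, its log2 fold change ran from 0.61 to 0.88. Peli1 (log2 0.46, standard error 0.337, adjusted p = 0.356), Tnfaip3 (log2 0.35, standard error 0.295, adjusted p = 0.436) and Irak3 (log2 0.06, standard error 0.361, adjusted p = 0.931) were not called, although the Peli1 libraries did not overlap either. Tnf was 2.24-fold higher (log2 1.17, standard error 0.416, adjusted p = 0.0561), a call lost in some fits without 1 library (adjusted p up to 0.154). Reads outside annotated genes made up 17.8 to 19.6% in the unstimulated controls and 20.8 to 27.2% after knockdown, without overlap, and their part in these differences was not tested.

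SF3a1 siRNA with LPS split the regulators. Rab7b and Tollip were higher and Socs3, Irak3, Tnfaip3 and Peli1 lower, 6 called genes of 9. Of all tested genes 38.8% were called, 18.4% higher and 20.4% lower. Rab7b was at 153, 68.0 and 90.8 CPM with control siRNA and at 296, 158 and 200 CPM with SF3a1 siRNA, a 2.10-fold difference (log2 1.07, standard error 0.275, adjusted p = 0.0107). The 2 groups were apart, and replicate 1 was the highest in both. Tollip was at 146, 112 and 118 CPM with SF3a1 siRNA, 1.32-fold above control (log2 0.40, standard error 0.171, adjusted p = 0.0948), with its lowest library just above the highest control of 111 CPM.

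Among the genes that were lower, Socs3 had 0.492 of the control level (log2 -1.03, standard error 0.22, adjusted p = 0.00375), and its highest SF3a1 siRNA library, 528 CPM, lay below the lowest control library, 741 CPM. Irak3 had 0.463 of the control level (log2 -1.11, standard error 0.358, adjusted p = 0.0324), with no overlap. The Irak3 value rested on control siRNA with LPS replicate 1, the library at 51.1 CPM, without which it was log2 -0.52 (adjusted p = 0.183). Tnfaip3 (log2 -0.68, standard error 0.283, adjusted p = 0.0892) and Peli1 (log2 -0.77, standard error 0.332, adjusted p = 0.0983) passed narrowly, and the libraries of both genes overlapped between the siRNAs. All 3 replicate pairs were lower for each.

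The calls of Tollip, Tnfaip3 and Peli1 with LPS were lost in 6, 8 and 9 of the 12 fits that left out 1 library each, where their log2 fold changes ran from 0.28 to 0.53, from -0.90 to -0.46 and from -1.08 to -0.46. DESeq2 size factors, or a fit of only the groups compared, also ended each of these calls. Library totals and limma-voom ended that of Peli1, and leaving out the filter on low counts ended that of Tollip. Among the 8 macrophage markers 2 were higher and 3 lower after knockdown with LPS, with Fcgr1 at log2 -3.20 (standard error 0.231), Adgre1 at -0.71 (standard error 0.284, or -0.28 and not called without control siRNA with LPS replicate 1) and Csf1r at 0.69 (standard error 0.138), and without LPS 2 were higher and 0 lower. Tnip1, lower only in replicate 1, was not called (log2 -0.15, standard error 0.227, adjusted p = 0.667). Reads outside annotated genes made up 17.8 to 19.8% in the stimulated controls and 18.2 to 21.4% after knockdown, and their part in these differences was not tested.

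**Figure D3:**
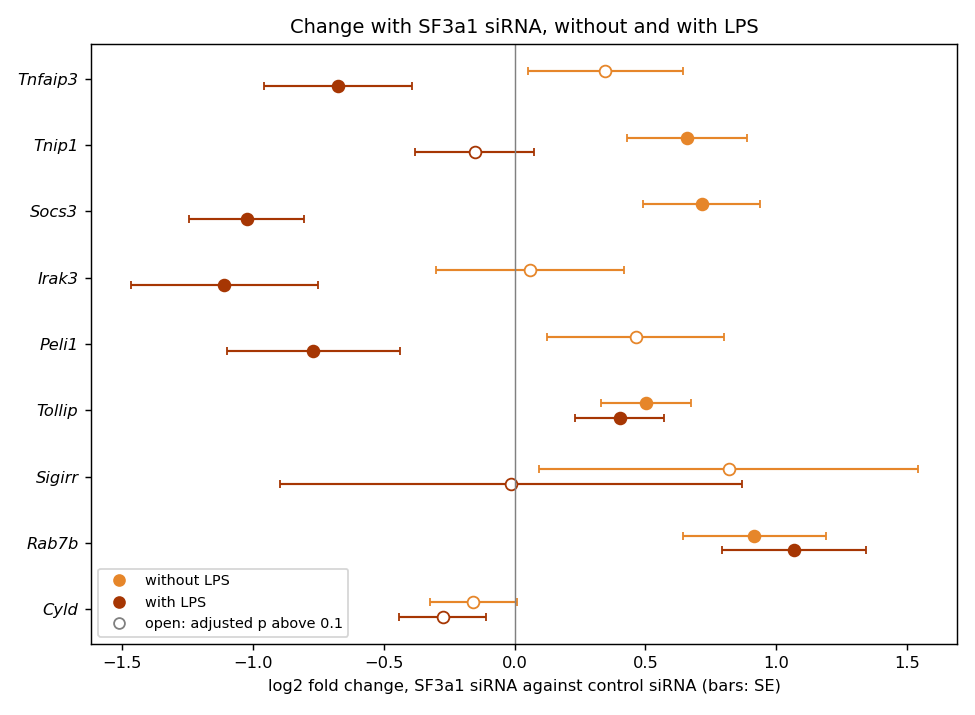
Log2 fold change with SF3a1 siRNA (x axis) of each regulator without and with LPS, with bars of 1 standard error; filled points passed an adjusted p of 0.1. Rab7b and Tollip lie to the right of 0 in both conditions, while Socs3 lies to the right without LPS (0.71) and to the left with LPS (-1.03).

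Cyld was called in none of the 5 comparisons. Its 12 libraries ran from 22.9 to 41.1 CPM, the lowest being SF3a1 siRNA with LPS replicate 2. Its group means were 38.8 ± 2.45, 37.7 ± 2.84, 34.7 ± 1.17 and 31.1 ± 7.09 CPM (SD, n = 3 each) for control siRNA without and with LPS, then SF3a1 siRNA without and with LPS. Sigirr was not called either, but its counts were 2 to 36 per library, at most 1.56 CPM, and its standard errors were 0.724 to 1.10 on the log2 scale, so that only large changes could have been called at this depth.

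Ordered by level, Socs3 was highest in control siRNA with LPS (920 CPM), then SF3a1 siRNA with LPS (452 CPM), SF3a1 siRNA without LPS (30.1 CPM) and control siRNA without LPS (18.3 CPM), and it was the only member in which all neighbours were called different. Tnfaip3, Peli1, Tnip1 and Irak3 had the same order. The lower 2 groups of Tnfaip3 were not called different and overlapped, as did the upper 2 of Tnip1 (613 and 551 CPM). The lower 2 groups of Peli1 (28.4 and 20.6 CPM) were not called different either, although their libraries did not overlap. Among the lower 3 groups of Irak3 no neighbours were called, but the libraries of SF3a1 siRNA with and without LPS did not overlap and were called with the replicate block (adjusted p = 0.0927). Rab7b had another order, both SF3a1 siRNA groups (218 CPM with and 185 CPM without LPS) above both control groups (104 and 98.2 CPM), with a difference between the middle neighbours (adjusted p = 0.0311) and not within either siRNA. Tollip ranked the groups as Rab7b did. None of its neighbours was called different, except with the replicate block, where LPS passed under control siRNA (adjusted p = 0.0113) and under SF3a1 siRNA (adjusted p = 0.0799). No neighbours of Cyld or Sigirr were called.

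Across the 12 libraries, Tnfaip3, Tnip1, Socs3 and Peli1 varied together (Pearson r of 0.936 to 0.976 on log2(CPM + 0.5)), Irak3 was closer to Socs3 (0.839) than to Tnip1 (0.688), and Tollip was closest to Rab7b (0.796). These are descriptions, since the points share the 4 groups and the replicate numbers. Of the genes that averaged 5 CPM or more, those most like Tnfaip3 were Acod1 (r = 0.993), Nfkb1 (0.993) and Nlrp3 (0.989). Nearest to Socs3 were Tnfrsf1b, Slfn2 and Zc3h12a (each 0.994), to Tnip1 Marcksl1 (0.988), Tnf (0.977) and Ccdc86 (0.975), and to Peli1 Stim2 (0.993), Tnf (0.987) and Csf1 (0.98). Irak3 was most like Mvp (0.953), Prkx (0.951) and Anxa4 (0.951). The nearest to Rab7b were Dmwd (0.978), Nr4a2 (0.975) and Layn (0.974), to Tollip Nus1 (0.975), Hmga1 (0.962) and 4833439L19Rik (0.962), and to Cyld Snx19 (0.954), Thoc2 (0.951) and Gcc2 (0.931). For the scarcely counted Sigirr they were Slc25a26 (0.799), Chrnb2 (0.635) and Dcaf11 (0.626).

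At the exon level 113 of the 161 bins of the 9 genes passed the filter, 0 of them from Sigirr. The test, edgeR's diffSpliceDGE, asks whether a bin's share of its gene's counts changes. Control siRNA with LPS is represented by 2 libraries in these values, and its replicate 3 was not used here. Of the 113 bins, 1 was called after SF3a1 siRNA without LPS, against 0.626% of all bins tested, and 0 with LPS, against 0.492%. LPS changed 0 under control siRNA (0.0801% of all bins) and 0 under SF3a1 siRNA (0.0254%). At an unadjusted p under 0.05 there were 6, 1, 1 and 2 of the 113 member bins in the same order, where 3.39, 3.99, 1.97 and 1.29% of all tested bins lay, so that these counts are no result about the members. Limma-voom called 0 member bins in each of these comparisons, where it called 0.514, 0.426, 0.067 and 0.0137% of all tested bins.

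The called bin was intron 7 of Tnfaip3, the A20 gene, which an annotated transcript retains (chr10:19003758-19004456 on the minus strand of mm10, 699 bases, between coding exons of Tnfaip3-201). Both ends of the intron are given as sequence from GENCODE vM21, since U2 snRNP, to which SF3a belongs, binds near the 3′ end of introns. Capitals mark the first and the last 2 bases of the intron, with 20 exon bases on the outer side.
5′ end, chr10:19004427-19004476, minus strand: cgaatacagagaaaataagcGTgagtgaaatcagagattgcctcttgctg
3′ end, chr10:19003738-19003857, minus strand: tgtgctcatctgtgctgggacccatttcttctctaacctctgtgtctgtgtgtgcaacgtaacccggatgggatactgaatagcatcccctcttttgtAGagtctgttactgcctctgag

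Of the 30 bases before the closing AG, 18 were pyrimidines. Without LPS intron 7 of Tnfaip3 had 1, 0 and 0 counts with control siRNA, of 550, 180 and 241 bin counts of the gene. With SF3a1 siRNA it had 9, 0 and 9 counts of 500, 178 and 149. Summed over the group, 2.18% of the gene's bin counts lay in the intron against 0.103%, a ratio of 21.1 with an exact 95% interval of 3.34 to 881 that covers counting error only. The bin was called (log2 usage change 3.96, adjusted p = 0.0651), but 1 SF3a1 siRNA library was at 0 and the libraries overlapped. The call was lost with the replicate block (log2 3.88, adjusted p = 0.214) and by limma-voom (adjusted p = 1). It was also lost in 7 of the 11 fits that left out 1 library, among them that without SF3a1 siRNA without LPS replicate 3 (adjusted p = 0.852). Over these 11 fits the log2 usage change ran from 3.10 to 5.32. On simulated data 37% of the genes that the bin test called for this comparison were false.

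With LPS, where the gene had more counts, the same intron had 34 and 6 counts with control siRNA and 39, 48 and 52 with SF3a1 siRNA. Its share of the gene's bin counts was 0.659 and 0.302% against 1.62, 2.76 and 1.87%, with every SF3a1 siRNA library above both controls. The log2 change of usage was 2.12, which was not called (adjusted p = 0.225 over all bins). Per base, the intron was covered at 10.7 ± 3.41% of the coding exons of the gene (SD, n = 3) with SF3a1 siRNA, and at 3.10 and 1.503% in the 2 control libraries. LPS itself gave no called change under control siRNA (log2 1.64, adjusted p = 1) or SF3a1 siRNA (log2 -0.20, adjusted p = 1). The other retained intron bin of Tnfaip3, in intron 5, stayed at or below 2.65% of the exon coverage in each library.

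**Figure D4:**
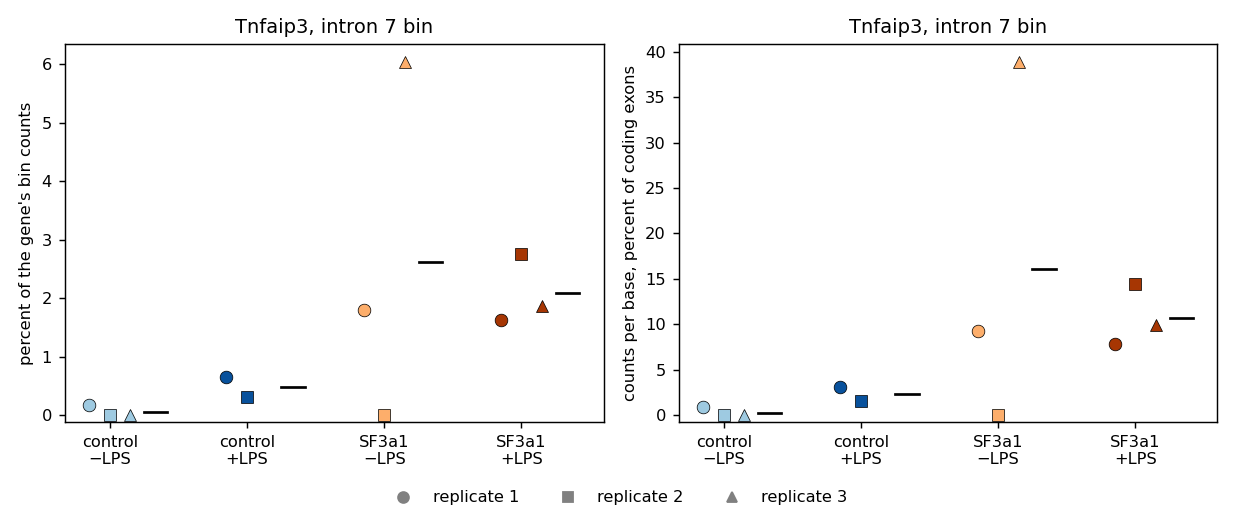
Counts in intron 7 of Tnfaip3 in 11 libraries, as a percentage of the gene's bin counts (left) and per base as a percentage of its coding exons (right); symbols mark the replicate number and black lines the mean. With LPS the 3 SF3a1 siRNA libraries (1.62 to 2.76% of bin counts) lie above both controls, and without LPS 1 SF3a1 siRNA library is at 0.

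No bin of the other members was called. In Tnip1 the bin with the smallest p after SF3a1 siRNA with LPS was bin 5 (chr11:54911498-54911571), bases between 2 alternative 3′ splice sites at the start of the last exon. Its share was 2.48 ± 0.414% under SF3a1 siRNA (SD, n = 3) against 1.26 ± 0.104% in the controls (SD, n = 2). In Rab7b, whose total level differed, the smallest p belonged to the 31-base bin 2 in the first exon without LPS (0.950 ± 0.0549% in controls against 0.496 ± 0.236%, n = 3 each) and to the 22-base bin 10 with LPS (3.38 ± 0.897%, n = 2, against 2.45 ± 0.580%, n = 3). For Cyld bin 15, without coordinates because its bins could not be matched to the annotation, the share without LPS was 0.839 ± 0.591% in controls against 2.44 ± 0.921% (n = 3 each), and the libraries overlapped. In Peli1 an intron that 1 transcript retains (intron 3) stayed at or below 1.08% of the coverage of coding exons in all libraries. In edgeR's diffSpliceDGE, bin 5 of Tnip1 and bins 2 and 10 of Rab7b each had an adjusted p of 1, and bin 15 of Cyld had 0.771.

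The members' surroundings in the pathway were followed in 4 lists of genes. The lists overlap: that of the members' relatives shares Irak1, Irak2, Irak4, Tlr4, Tnip2, Tnip3 and Socs1 with the others, so their calls recur. In the MyD88 arm of the TLR4 pathway all 20 genes were tested. LPS with control siRNA raised 8 and lowered 2, led by the NF-κB subunit Nfkb1 (log2 2.48, standard error 0.149), the LPS co-receptor Cd14 (2.35, standard error 0.255) and the kinase Irak2 (2.19, standard error 0.173). SF3a1 siRNA raised 5 and lowered 2 without LPS, led by Ikbkg (log2 0.88, standard error 0.157), Ikbkb (-0.67, standard error 0.138) and Map3k7 (0.62, standard error 0.137), which encode subunits of the IKK complex and TAK1. With LPS it raised 4 and lowered 4, with Ikbkb (-0.99, standard error 0.138), Irak2 (-0.61, standard error 0.166) and Irak1 (-0.51, standard error 0.167) in front. The 7 and 8 of 20 genes called with SF3a1 siRNA lie near the 33.8% and 38.8% of all tested genes, and the 10 of 20 called with LPS stand beside 32.1%. The median log2 fold changes were 0.19, 0.21 and -0.21, against -0.0166, -0.0203 and -0.0373 for all tested genes.

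Of the 10 partners of A20, which include the subunits of the linear ubiquitin ligase LUBAC, 9 were tested. LPS with control siRNA raised 4 and lowered 0, beside 13.8% and 18.3% of all tested genes, among them Rnf31 (log2 0.94, standard error 0.277), Tnip3 (0.88, standard error 0.184) and Tnip2 (0.64, standard error 0.164). SF3a1 siRNA lowered 3 and raised 1 without LPS and lowered 4 and raised 0 with LPS, 4 of 9 each time, where 33.8% and 38.8% of all tested genes were called. The medians were 0.08 with LPS and -0.02 and -0.18 with SF3a1 siRNA without and with LPS, against -0.0166, -0.0203 and -0.0373 over all tested genes. Otulin, a deubiquitinase of linear chains, was lower without LPS (log2 -0.66, standard error 0.175) and with LPS (-0.57, standard error 0.175). The LUBAC gene Rbck1 was lower in both conditions (-0.51 and -0.81, standard error 0.126 each), as was Sharpin (-0.42 and -0.61, standard error 0.148 each). The third LUBAC gene, Rnf31, was lower with LPS (-0.92, standard error 0.277) and was not called without LPS. With the replicate block Rnf31 was called without LPS (-0.54, adjusted p = 0.031), in a fit that called 7053 genes in place of 5069.

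Among the 28 other negative regulators of TLR signalling, LPS with control siRNA raised 15 and lowered 4, with a median log2 fold change of 1.22. The largest rises were those of the interferon-induced protease Usp18 (log2 6.26, standard error 0.5), the cytokine signalling inhibitor Socs1 (5.21, standard error 0.479) and the receptor kinase Axl (5.07, standard error 0.533). SF3a1 siRNA raised 9 and lowered 5 without LPS, led by the repressor Atf3 (log2 -1.35, standard error 0.324) and the IκB genes Nfkbie (1.17, standard error 0.438) and Nfkbia (1.07, standard error 0.186). With LPS it raised 5 and lowered 10, led by Axl (-2.68, standard error 0.469), Atf3 (-2.43, standard error 0.326) and Usp18 (-2.06, standard error 0.412). Under SF3a1 siRNA, LPS raised 12 and lowered 2 of them. Over all tested genes 13.8% were higher and 18.3% lower with LPS under control siRNA and 6.6% and 4.06% under SF3a1 siRNA, and SF3a1 siRNA gave 13.7% higher and 20.1% lower in unstimulated cells and 18.4% and 20.4% in stimulated ones. The medians of the list for SF3a1 siRNA were 0.35 without and -0.27 with LPS.

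Of 16 relatives of the 9 genes 13 were tested. LPS with control siRNA raised 5, among them Cish (4 counts over the group without LPS, 1345 with LPS), Socs1 and Irak2, and lowered 1. SF3a1 siRNA raised Rab7, the close relative of Rab7b, in both conditions (log2 0.57, standard error 0.238, and 0.66, standard error 0.239). Without LPS it raised 2 genes of this list, the other being Irak4 (0.39, standard error 0.132), and lowered 1, Irak1 (-0.49, standard error 0.167). With LPS it raised 2 and lowered 4, among them Cish (-1.71, standard error 0.192) and Socs1 (-0.90, standard error 0.382). The 3 and 6 of 13 called compare with 33.8% and 38.8% of all tested genes, and the 6 called with LPS with 32.1%. The medians of the list were 0.18 with LPS and 0.29 and -0.18 with SF3a1 siRNA without and with LPS. The value of Nfkbie without LPS was 1.80 when control siRNA without LPS replicate 1 was left out and 0.57 without SF3a1 siRNA without LPS replicate 1. Left out one at a time, single libraries ended the calls named here of Irak1, Otulin, Rbck1, Sharpin, Nfkbie, Rab7 and Irak4 without LPS and of Irak1, Socs1 and Rab7 with LPS, with adjusted p values up to 0.35.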

How the data were processed

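Per the labels and the study's methods, polyA RNA of RAW264.7 cultures was sequenced on an Ion Proton, reads of at least 30 bases were mapped to mm10 with GSNAP, and unique reads were counted by the authors. The deposited values are raw counts per gene from htseq-count and counts per exon bin from DEXSeq's script. Counts outside genes were left out. Here counts were fitted with edgeR 4.0.16 (R 4.3.3): TMM scaling, filterByExpr, glmQLFit over all libraries with 1 mean per group, glmQLFTest, Benjamini-Hochberg over all tested genes, and diffSpliceDGE for bins. A gene or bin is called at an adjusted p of 0.1. Standard errors come from the log2 fold change and F. Exon lengths and bin positions are from GENCODE vM21. Bins of 6 genes matched it in number, those of Tollip, Sigirr and Cyld did not.

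Libraries of the same number deviated together (r = 0.144 to 0.659 over 18 pairs, -0.591 to 0.417 over 36 other pairs), so a replicate block was fitted as well. Replicate 1 against the other numbers was always negative (-0.591 to -0.18). Pairs of replicate 2 with replicate 3 were all positive (0.046 to 0.417), beside 0.144 to 0.564 for their same-number pairs. The pairing thus mainly sets replicate 1, the deepest and with 2 runs, apart from the others. Other alternatives were DESeq2 1.42.0, its size factors, library totals, limma 3.58.1, no filter, only the groups compared, other bin dispersions and filters, and each library left out. The steps were tested on simulated data, where the bin test made more false calls than its nominal rate. Of the genes it called there, 31.3 to 41.3% were false, depending on the comparison. The members and lists were chosen with earlier results of these data known. Named were all members, and from each list up to 3 called genes with the largest change and a mean of at least 5 CPM.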

Additional observations from a re-analysis of the deposited data

Results flagged for a closer look

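The effect of LPS differed between SF3a1 siRNA and control siRNA, by the interaction term of edgeR's model, for 1 of the 9 regulators, where 3.47% of all tested genes were called, 1.54% higher and 1.94% lower. Socs3 had a log2 difference of -1.74 (adjusted p = 0.0163), which stayed between -2.01 and -1.44 and was called with each library left out in turn. Il1b had -3.31 (adjusted p = 0.0413, with 7, 2 and 6 counts in the libraries with control siRNA and no LPS), and lost its call without control siRNA without LPS replicate 1 or 2 or SF3a1 siRNA without LPS replicate 1 (log2 difference -2.26 without the last, adjusted p up to 0.314). Limma-voom did not call Il1b either (adjusted p = 0.226). Cish had -3.01 (adjusted p = 0.0352, with 4 counts over the 3 unstimulated control libraries), and lost its call without SF3a1 siRNA without LPS replicate 1 or 2 (adjusted p up to 0.276). The Fc receptor gene Fcgr1, a macrophage marker, had -2.83 (adjusted p = 0.00149). Nfkbia, the IκBα gene, had -1.21 (adjusted p = 0.0348). Irak2 had -0.85 (adjusted p = 0.0971), a call lost without any of 10 single libraries, with DESeq2 size factors and by limma-voom. Cish, Fcgr1, Nfkbia and Irak2 had been named because their changes were among the largest called in their lists. The comparisons used for that share groups with the interaction, so these calls are no independent result. Of the 28 other negative regulators 1 was called higher and 3 lower; beside Nfkbia these were Nlrc3 (1.13, adjusted p = 0.0535), Trim30a (-1.84, adjusted p = 0.0131) and Zc3h12a (-1.31, adjusted p = 0.0273), named after their values were seen.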

How the results depend on the processing

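With the replicate block 3115 genes were called for LPS with SF3a1 siRNA and 1756 for the interaction, and 4 members for the interaction. Beside the changes given in the report the block changed no other call of a member. DESeq2 called 966 genes for the interaction, and without the filter 930 genes and 4 members were called. For SF3a1 siRNA with LPS, 3 members were called with DESeq2 size factors, where 5757 genes were called in all. When only the groups compared were fitted, 3 members and 4468 genes were called. With each library left out, called genes ran from 1050 to 2005 for LPS with SF3a1 siRNA, from 4744 to 5993 for SF3a1 siRNA with LPS and from 273 to 711 for the interaction. Called members ran from 3 to 5 for SF3a1 siRNA with LPS and from 1 to 2 for the interaction. Called member bins ran from 0 to 1 for LPS with control siRNA and from 0 to 1 for SF3a1 siRNA without LPS. With 1 dispersion per gene 1, 1, 7 and 3 member bins were called for LPS under control and SF3a1 siRNA and for SF3a1 siRNA without and with LPS, in this order, when 2.09, 0.607, 4.00 and 5.31% of all tested bins were. For SF3a1 siRNA without LPS limma-voom and the block called 0 member bins, when 0.514 and 1.38% of all tested bins were called. With at least 10 counts in 2 libraries 1 member bin was called for LPS with control siRNA, when 0.0825% of all tested bins were. No call of a member, of Sf3a1, Tnf or Il1b, or of a gene named from the lists for its size of change turned its direction in any setting. The other listed genes were not followed through the settings. Of 448 member values called neither in the main fit nor in the setting set against it, 26 changed sign. With 3 libraries a group, adjusted p values near 0.1 move across the threshold with 1 library, and Sigirr and the introns are limited by their few counts.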
